A study of Mus musculus with 16 samples.

Results

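The circular RNAs (circRNAs) mmu_circ_0011843, mmu_circ_0001801, mmu_circ_0015813 and mmu_circ_0001800 are 4 of the 14540 circRNA rows, and of 18488 rows in all, that were counted in small RNA libraries of mouse prefrontal cortex. They were picked by a rule that asked for 3 or 4 PS19 libraries far above every wild-type (WT) library, and in each row 3 lay so. The difference between genotypes within these rows is therefore only described here. Fits over all rows include them and are given as background, not as a test of these 4. Of the 4 rows, 3 held almost the same number of reads in every library, so the set is read here as 2 distinct measurements.

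The libraries came from 8 PS19 mice and 8 WT littermates, 1 library per mouse, and are named here by genotype and replicate number. PS19 mice were heterozygous (PS19+/-) for a transgene encoding a mutant human tau under the control of the mouse prion protein promoter, on a mixed C57BL/6 and C3H background, and WT littermates lacked it. No treatment was named, the animals were in the tenth month of life, and each genotype had equal numbers of males and females, although the sex of a single library was not given. A library was made from a piece of frozen cortex that holds many cell types, so fewer cells of a type and less RNA per cell cannot be told apart. The question behind the comparison was which non-coding RNAs differ in abundance in a brain with tauopathy.

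CircRNAs form when the splicing machinery joins a downstream splice donor to an upstream acceptor, which closes 1 or more exons into a ring. Lacking free ends, they resist the exonucleases that degrade linear RNA, and in the brain they are abundant and tend to accumulate with age. Small RNA sequencing reads only short pieces, so a fragment inside the ring looks the same as one from the linear transcript of the same gene. Whether a counted read crossed the junction that closes the ring was not given, and the host genes, positions, lengths and sequences of the 4 circRNAs were not analysed here. Normalized counts are therefore compared between libraries within a row. Where reads of a pair of rows are set side by side, it is to see whether they were counted together and not to rank the rows by level.

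The values are normalized counts, that is, reads divided by 1 size factor per library. Dividing by the value of 1 read gave back whole reads, which totalled 13.2 M to 23.1 M per library, with 14.1 M, 17.4 M and 14.9 M in PS19-3, PS19-4 and PS19-5. These 3 libraries carry the pattern in all 4 circRNAs. They lay within the range of the other 13 libraries in the number of rows above 0 and in the share of reads assigned to circRNAs. All 6 brain miRNAs of the marker list were above 0 in every library, and their summed normalized count spanned 340491 to 1078426 over PS19 libraries, and 362417 to 999596 over WT libraries. The labels also carry a library code, which starts with G in the 8 PS19 libraries and 2 WT libraries, with F in 4 and with A in 2 of the remaining WT libraries, and the meaning of this letter is not stated.

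mmu_circ_0011843 had normalized counts of 440 in PS19-3, 285 in PS19-4 and 747 in PS19-5. In the other 5 PS19 libraries it ranged from 15.2 to 26.2, and in the 8 WT libraries from 8.91 to 24.3 with a median of 15.55. The 3 high libraries thus stood 28.3, 18.3 and 48.05 times above the WT median, while the remaining PS19 libraries overlapped with WT. A 4th PS19 library, PS19-1 at 26.2, exceeded the highest WT library, WT-1 at 24.3, by less than 2 normalized counts. In recovered reads, the row had 304, 267 and 760 in PS19-3, PS19-4 and PS19-5 and 10 to 31 in the others.

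In PS19 the mean of mmu_circ_0011843 was 196.5 ± 274.1 (SD, n = 8), and in WT it was 15.3 ± 5.44 (SD, n = 8). On the log2(value + 1) scale the difference between the means was 2.10 ± 0.85 (SE), with an SD of 2.34 in PS19 and 0.50 in WT. The difference between the log2 medians was 0.57. Mean and median therefore gave unlike sizes for the same row, as 3 of 8 libraries move a mean far more than a median.

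mmu_circ_0001801 reached 1765 in PS19-3, 393.5 in PS19-4 and 835.6 in PS19-5. The other 5 PS19 libraries lay between 11.9 and 21.9, and WT ranged from 10.1 to 36.1 with a median of 12.4. The same 3 libraries were high as for mmu_circ_0011843, at 142.5, 31.8 and 67.45 times the WT median, and here no 4th PS19 library exceeded WT. All 5 remaining PS19 libraries fell below WT-1 at 32.0, WT-6 at 32.0 and WT-7 at 36.1.

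In PS19 the mean of mmu_circ_0001801 was 386.1 ± 629.8 (SD, n = 8), and in WT it was 19.4 ± 11.7 (SD, n = 8). The log2 difference was 2.17 ± 1.05 (SE), and that between the log2 medians was 0.78. The WT libraries themselves fell apart for this row, with WT-1, WT-6 and WT-7 at 32.0 to 36.1 and the other 5 between 10.1 and 13.4. All 3 of these WT libraries had a code starting with F, as did WT-5 at 13.4, whereas the 2 WT libraries with a G code were at 11.4 and 10.1, so that in the libraries with a G code all 8 PS19 libraries lay above WT, PS19-7 at 11.9 being the lowest. The part of the code letter in the result was not tested, and only 2 WT libraries shared the letter of the PS19 libraries.

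mmu_circ_0015813 followed mmu_circ_0001801 nearly read for read. Its normalized counts were 1765, 391.4 and 837.5 in PS19-3, PS19-4 and PS19-5, 13.1 to 24.9 in the other 5 PS19 libraries and 10.1 to 38.2 in WT. The means differed by 2.12 ± 1.04 (SE) on the log2 scale and the medians by 0.74.

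mmu_circ_0001800 had the same normalized counts as mmu_circ_0015813 in the 3 high libraries, and 13.1 to 26.3 in the other 5 PS19 libraries. In WT it ranged from 10.1 to 38.9. On the log2 scale its means differed by 2.13 ± 1.04 (SE) and its medians, again, by 0.74. For all 4 rows the lowest of the 3 high libraries stood clear of the highest of the other 13, by 10.5 times in mmu_circ_0011843, 10.6 times in mmu_circ_0001801, 10.0 times in mmu_circ_0015813 and 9.83 times in mmu_circ_0001800 (value + 1 in both).

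**Figure D1:**
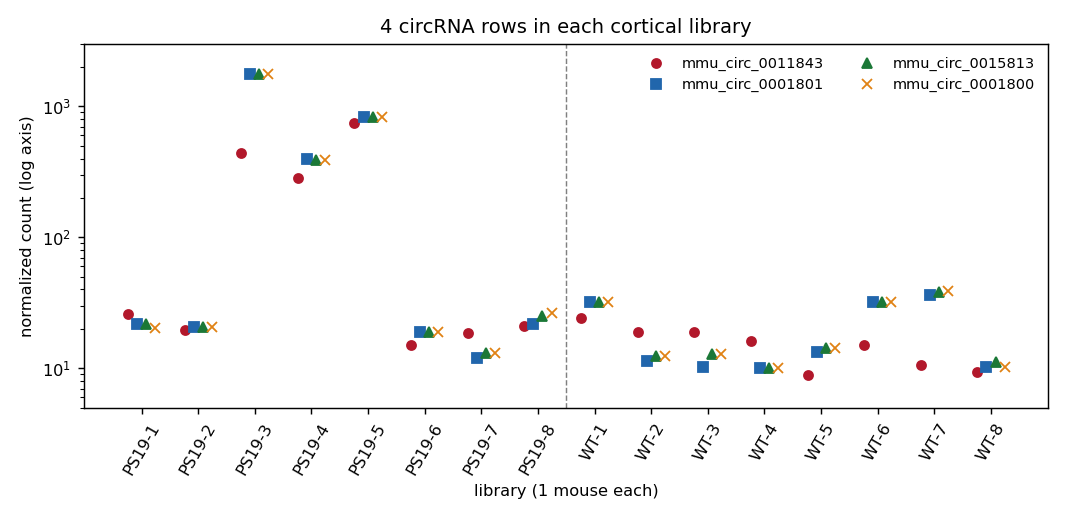
Normalized counts (log axis) of the 4 circRNA rows in each library, with the 8 PS19 libraries left and the 8 WT libraries right of the dashed line and 1 point per row and library. PS19-3, PS19-4 and PS19-5 lie between 285 and 1765, and the other 13 libraries lie between 8.91 and 38.9.

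The near identity of mmu_circ_0001801, mmu_circ_0015813 and mmu_circ_0001800 was examined in recovered reads. The 3 rows had equal reads in 6 of the 16 libraries, differed by at most 2 reads in 13, and by no more than 6 in any. PS19-3 held 1220 reads in each of them. PS19-4 held 369, 367 and 367, and PS19-5 held 850, 852 and 852. mmu_circ_0015813 and mmu_circ_0001800 were equal in 12 libraries, and mmu_circ_0001801 had fewer reads than mmu_circ_0015813 in 8 libraries and more in 1. The lowest Pearson r between any pair of the 3 rows was 0.999 over 16 libraries and 0.985 over the 13 libraries that were not high. The near identity thus held at low as well as at high values, and the 3 rows cannot be told apart as sources of these reads.

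mmu_circ_0011843 was not a copy of these 3 rows. The order of the high libraries differed, with PS19-5 above PS19-3 above PS19-4 in mmu_circ_0011843 and PS19-3 above PS19-5 above PS19-4 in the others. For each read of mmu_circ_0001801 there were 0.249 reads of mmu_circ_0011843 in PS19-3, 0.724 in PS19-4 and 0.894 in PS19-5, and 0.294 to 1.83 in the other 13 libraries. Pearson r between them was 0.943 over 16 libraries and 0.177 over the 13 without the high ones, with a Spearman rho of 0.588 over 16. The likeness of these rows therefore lay in which 3 libraries were high and not in the order of the rest.

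**Figure D2:**
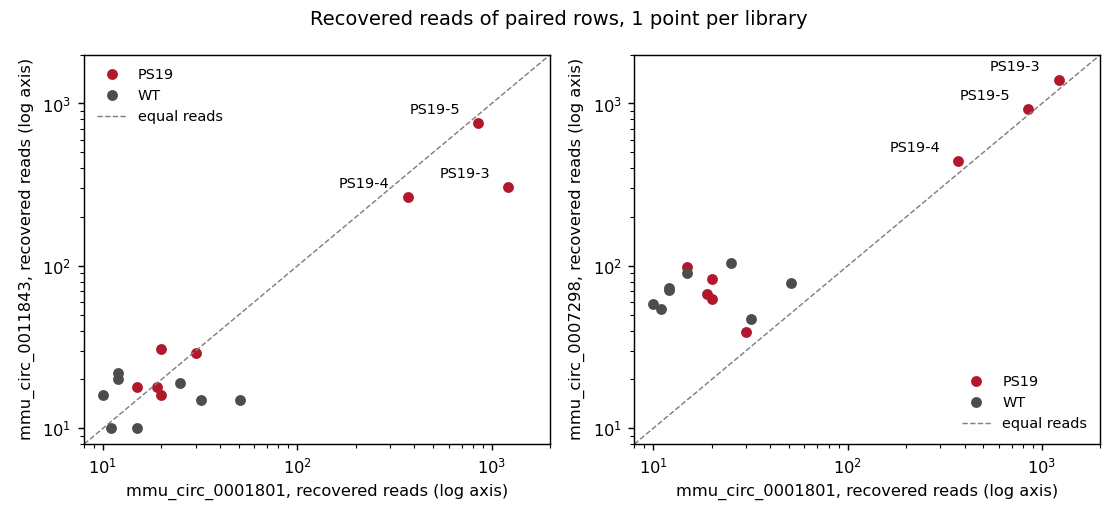
Recovered reads (log axes) of mmu_circ_0011843 (left) and mmu_circ_0007298 (right) against those of mmu_circ_0001801, with 1 point per library, PS19 in red, WT in grey and a dashed line of equal reads. PS19-3, PS19-4 and PS19-5 stand apart in both panels, and in the right panel every library lies above the line, by 9 to 179 reads.

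Together the 4 rows held 0.128%, 0.0330% and 0.149% of the circRNA reads in PS19-3, PS19-4 and PS19-5, and 0.00116% to 0.00579% in the other 13 libraries. If the 3 near-identical rows hold the same reads, these shares count them more than once. The rise in the 3 libraries was thus far larger than any difference in the circRNA share, which was 22.0%, 23.9% and 14.9% of all reads in them and 13.8% to 24.4% over the 16 libraries.

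How uncommon the pattern was can be read from the 6024 rows with a mean normalized count of at least 5, all 4 circRNAs among them. The ratio of the third-highest PS19 library to the highest WT library (value + 1 in both) was 11.3 in mmu_circ_0011843, 10.6 in mmu_circ_0001801, 10.0 in mmu_circ_0015813 and 9.83 in mmu_circ_0001800, at ranks 2, 3, 5 and 6. At least 3 PS19 libraries stood 5 times above the highest WT library in 7 rows (0.116%), and in 0 rows (0%) did WT stand above PS19 in this way. The less strict pattern of at least 3 PS19 libraries above every WT library was common, with 530 rows (8.8%). Since the circRNAs were picked by this pattern, their ranks only restate the choice.

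The other 3 rows of the 7 were small nucleolar RNAs (snoRNAs), a class that guides chemical modification of ribosomal and spliceosomal RNA, and other libraries carried their difference. Gm26466, with the highest ratio of all at 17.0, had 1401, 947, 1395 and 3078 in PS19-2, PS19-4, PS19-6 and PS19-8, against 46.3 to 81.2 in WT. It was not raised in PS19-3 and PS19-5, at 0.570 and 0.887 times the WT median. Gm22348 (ratio 10.5) and Gm25229 (9.29) were high in the same 4 libraries, and so were the next rows, Gm26096 and Gm26499 (3.88 each). Only PS19-4 was high in both these snoRNAs and the 4 circRNAs.

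**Figure D3:**
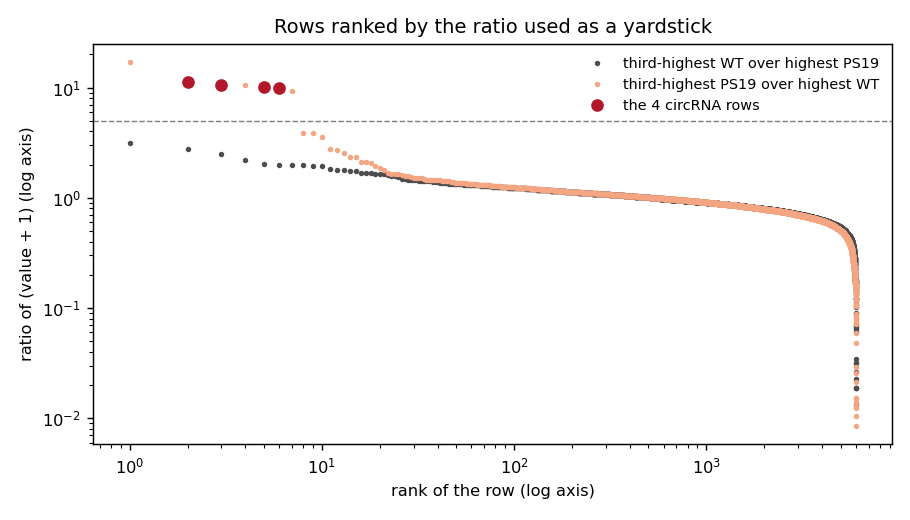
The 6024 rows ranked (log axis) by the ratio of the third-highest PS19 to the highest WT library (value + 1, log axis), in orange, with the 4 circRNA rows as large red points, and by the ratio with the genotypes exchanged, in grey. The dashed line marks a ratio of 5, above which lie the 4 circRNA rows and 3 snoRNA rows, whereas the highest exchanged ratio is 3.17.

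The circRNAs just short of this ratio were high in the same 3 libraries. mmu_circ_0007298 (ratio 3.53) had 2024, 472.4 and 915.2 in PS19-3, PS19-4 and PS19-5, 28.5 to 142.6 in the other PS19 libraries and 47.0 to 133.3 in WT. Its recovered reads exceeded those of mmu_circ_0001801 in all 16 libraries, by 179, 74 and 81 in the 3 high libraries and by 9 to 83 in the others. The excess spanned a narrower range than the reads of either row. Whether the same molecules were counted under both names was not tested.

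mmu_circ_0006414 (ratio 2.77) had 42.0, 37.3 and 62.9 in the 3 libraries and 4.37 to 12.8 in the other 13. mmu_circ_0015728 (ratio 2.36) had 389.1, 262.3 and 197.6, against 18.0 to 83.0. Both repeated the 3 high libraries, mmu_circ_0006414 in the order seen in mmu_circ_0011843 and mmu_circ_0015728 with PS19-3 first and PS19-5 last, which none of the 4 picked circRNAs showed.

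Calls over the whole table are given as background only. They include the 4 circRNAs, which were picked on this contrast, so nothing about these rows is read from them. In limma, 0 of 6024 rows (0%) reached an adjusted p-value under 0.05, and 241 (4%) had an unadjusted p-value under 0.05. Higher in PS19 at an unadjusted p-value under 0.05 were 112 of the 6024 rows (1.86%). DESeq2 on the recovered reads called 15 of the 6024 rows (0.249%) higher in PS19 at an adjusted p-value under 0.05, of which 4 were the picked circRNAs, and the edgeR quasi-likelihood test called 0 (0%), with 265 at an unadjusted p-value.

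By Pearson r over the 16 libraries, on which the 3 high libraries weigh most, the rows most like the 4 circRNAs were other circRNAs. For mmu_circ_0011843, apart from the other 3 picked rows, these were mmu_circ_0016396 (Pearson r of 0.944 on the log2 scale, Spearman rho of 0.824) and mmu_circ_0016397 (0.927 and 0.700). mmu_circ_0016396 had 37.6, 42.7 and 53.1 in PS19-3, PS19-4 and PS19-5 and 10.7 to 23.3 in the other 13 libraries. mmu_circ_0016397 had 39.1, 44.8 and 54.1, against 14.1 to 24.7. Both were high in the same 3 libraries with PS19-5 the highest, as in mmu_circ_0011843, but at 2.41 to 3.82 times the WT median and not at 18.3 times or more. Without the 3 libraries, r was 0.548 for mmu_circ_0016396 and 0.291 for mmu_circ_0016397 (n = 13).

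For mmu_circ_0001801, the closest rows that were not its copies were mmu_circ_0011843, mmu_circ_0007298 (r of 0.929), mmu_circ_0006414 (0.888), mmu_circ_0016396 (0.862) and mmu_circ_0006928 (0.852). mmu_circ_0006928 had 16659, 16573 and 23096 in the 3 libraries and 5040 to 11354 in the others. Over the other 13 libraries r was 0.155, 0.116, −0.054 and 0.313 for the last 4 of these rows, so their likeness, too, rested on PS19-3, PS19-4 and PS19-5. All these correlations share the same libraries and size factors and are given as description.

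**Figure D4:**
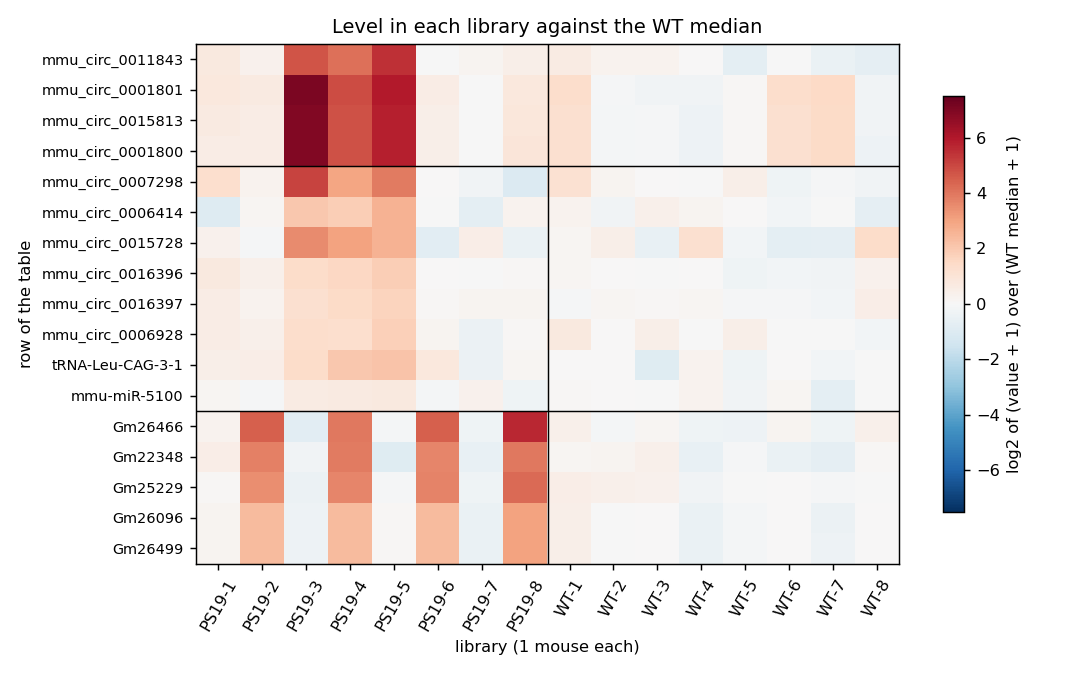
Heat map of log2 of (value + 1) over (WT median + 1) for the 4 circRNA rows (top block), rows that resemble them (middle block) and the snoRNA rows with a high ratio (bottom block), with libraries as columns and WT to the right of the vertical line. The top block is red in PS19-3, PS19-4 and PS19-5, and the middle block ranges from red to very pale in the same libraries. The bottom block is red in PS19-2, PS19-4, PS19-6 and PS19-8.

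Rows of the other RNA classes that resembled the circRNAs most were looked up after the values were seen. Among transfer RNAs (tRNAs), which carry amino acids to the ribosome, tRNA-Leu-CAG-3-1 was the closest to both mmu_circ_0011843 (r of 0.866) and mmu_circ_0001801 (0.836). Over the 13 libraries that were not high, r was 0.228 and 0.294. It had 212.7, 331.6 and 368.6 in PS19-3, PS19-4 and PS19-5 and 42.8 to 141.4 in the other 13 libraries. Among snoRNAs, Snord104 was the closest to mmu_circ_0011843, with an r of 0.775 over 16 libraries and of 0.757 over the 13. Its Spearman rho of 0.885 was above the 0.824 of mmu_circ_0016396. With mmu_circ_0001801, however, Snord104 had an r of 0.662 over 16 libraries and of −0.119 over the 13. The closest small nuclear RNA (snRNA), Gm22126, reached 0.774 with mmu_circ_0011843 and 0.676 with mmu_circ_0001801, and 0.41 and −0.353 over the 13.

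The closest miRNA to mmu_circ_0011843 was mmu-miR-5100 (r of 0.804), and its mature sequence is shown since it is the most similar row for which one was at hand, from RefSeq on GRCm38.p6 at chr11:60728698-60728718 on the plus strand, with the seed, bases 2 to 8, in capitals.
mmu-miR-5100: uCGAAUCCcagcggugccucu
Its normalized counts were 96.9, 102.4 and 106.2 in PS19-3, PS19-4 and PS19-5, and 38.2 to 80.3 in the other 13 libraries. The same 3 libraries were highest, at 1.54, 1.62 and 1.68 times the WT median, a small difference beside that of the circRNAs. With mmu_circ_0001801 its r was 0.659. Over the 13 libraries that were not high, r was 0.457 with mmu_circ_0011843 and −0.388 with mmu_circ_0001801.

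PS19-3, PS19-4 and PS19-5 were the 3 highest libraries in 51 of the 6024 rows (0.847%), the 4 circRNAs among them. Of the 560 possible sets of 3 libraries, 549 were the highest of some row, and 14 sets held more rows than this one, up to 134. The set was thus among the more frequent ones, though not the most frequent. Its 51 rows include near copies, among them 3 of the 4 circRNAs, so they are not all separate measurements. The 47 rows that were not picked had a median ratio of the lowest of the 3 to the highest of the other 13 libraries of 1.10 and a highest ratio of 3.30, while the lowest among the 4 circRNAs was 9.83. It was the size of the gap that set the 4 circRNAs apart, and that gap is what they were picked for.

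By class, the 51 rows were 31 of 4253 circRNAs (0.729%), 3 of 750 miRNAs, 2 of 497 snoRNAs, 4 of 118 snRNAs (3.39%) and 11 of 405 tRNAs (2.72%). All 11 tRNA rows were leucine tRNAs, of which 28 were examined, with 9 of 10 bearing the anticodon CAG and 2 of 4 the anticodon CAA. None of the 5 with AAG, 6 with TAA or 3 with TAG was among them. The group was noticed after the values were seen. Whether the leucine tRNA rows share reads with each other or with the 4 circRNAs was not tested, so they may not be separate measurements.

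Of the 4 rows, mmu_circ_0001800 and mmu_circ_0001801 bear consecutive numbers. The circRNAs with numbers near theirs are described next, the 4 rows themselves aside. Within 10 numbers on either side, 18 such rows were listed for each of the 4, of which 7 had a mean normalized count of at least 5 around mmu_circ_0011843, 5 around mmu_circ_0001801, 7 around mmu_circ_0015813 and 5 around mmu_circ_0001800. In 0 of these were PS19-3, PS19-4 and PS19-5 the 3 highest libraries, against 0.847% of all rows, so that a count of 0 in so few rows shows nothing particular to them. The windows of mmu_circ_0001801 and mmu_circ_0001800 also overlap. Their highest ratio of the third-highest PS19 to the highest WT library was 1.14 around mmu_circ_0011843, 1.48 around mmu_circ_0001801 and mmu_circ_0001800, and 1.73 around mmu_circ_0015813. The most abundant neighbour of mmu_circ_0011843, mmu_circ_0011850, averaged 87.9 ± 36.6 (SD, n = 8) over PS19 libraries and 93.2 ± 35.1 (SD, n = 8) over WT libraries. That of mmu_circ_0001801 and mmu_circ_0001800, mmu_circ_0001796, had 17.4 ± 9.27 (SD, n = 8) and 18.7 ± 6.69 (SD, n = 8), and that of mmu_circ_0015813, mmu_circ_0015804, had 18.05 ± 6.62 (SD, n = 8) and 19.8 ± 7.07 (SD, n = 8). The log2 differences of these neighbours were −0.09, −0.18 and −0.14, each within its SE of 0.32, 0.31 and 0.28. Among the next most abundant neighbours, mmu_circ_0001811, near mmu_circ_0001801, had a log2 difference of 0.56 with an SE of 0.31. Every other one lay within its SE.

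Marker miRNAs of tissues outside the cortex, of red blood cells and of myeloid cells were read beside the 3 high libraries. The 5 markers of choroid plexus and olfactory bulb summed to 7139 in PS19-3, 2062 in PS19-4 and 1549 in PS19-5, against 1079 to 2206 in the other 5 PS19 libraries and 615.3 to 4370 in WT. Not every marker followed this sum. In mmu-miR-429-3p and mmu-miR-200a-3p the third-highest WT library was 3.17 and 2.49 times the highest PS19 library (value + 1 in both). For these markers at least 3 WT libraries therefore stood above every PS19 library, PS19-3 included. The 3 muscle markers summed to 14631, 8605 and 2253 in the 3 libraries, 2805 to 8962 in the other PS19 libraries and 2867 to 10689 in WT. PS19-3, the highest library for mmu_circ_0001801, mmu_circ_0015813 and mmu_circ_0001800, was thus above all others in both sums, as it was in the sum of the brain markers at 1078426, whereas PS19-4 and PS19-5 lay within the range of WT for the first, and PS19-5 was the lowest of all libraries for the second. The 3 red blood cell markers summed to 744.3 to 1518 in the 3 libraries, with PS19-5 the highest of all 16, to 730.6 to 1178 in the other PS19 libraries and to 651.6 to 1411 in WT. The liver marker mmu-miR-122-5p was at 260.2 to 429.6 in the 3 libraries, 138.2 to 653.5 in the other PS19 libraries and 132.3 to 386.6 in WT. The 3 myeloid markers summed to 76.8 to 125.9 in the 3 libraries, 51.2 to 202.9 in the other PS19 libraries and 28.0 to 84.6 in WT. Among all these markers, mmu-miR-144-3p, mmu-miR-429-3p and mmu-miR-142a-3p were at 0 in at least 1 library. The part of other cell types in the 4 circRNAs was not tested.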

How the data were processed

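Small RNA from prefrontal cortex of 8 PS19 and 8 WT mice was sequenced single-end. Per the labels and the study's methods, reads were aligned by the authors with STAR 2.5.3a (mm10) within COMPSRA, which assigns them to 5 classes of annotation, and scaled counts with DESeq2 1.42.1. The deposited values are a normalized signal, read counts divided by 1 size factor per library. Fold changes, errors and p-values of the authors' own comparison in the same table were not used. Values were whole multiples of a library's smallest value above 0 in 100% of cases (within 0.1%), which gave the reads back. In WT-4 and WT-6 a read was worth close to 1, so there the step rests on weaker evidence.

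The 4 circRNAs, the marker list and the naming rules were chosen with earlier results of these data known. Besides the 4, rows were named as the 5 closest by Pearson r on the log2 scale (copies, at an r of 0.99 or more and a mean within 2 times, given apart), the 5 with the highest ratio of third-highest PS19 to highest WT library, and up to 3 of the most abundant neighbours by number. mmu_circ_0007298 and mmu_circ_0006414 were also given as the rows next in ratio, and mmu_circ_0015728, the rows of other classes and the leucine tRNAs were chosen after the values were seen. The 6024 rows with a mean of at least 5 were fitted on log2(value + 1) in limma 3.58.1 (R 4.3.3, eBayes with trend, genotype as the only term, two-sided, Benjamini-Hochberg adjustment), for background only. Fold changes on this scale understate those of low rows. The fit was tested on simulated data. Alternatives were DESeq2 1.42.0 and edgeR 4.0.16 (TMM) on recovered reads, pseudocounts of 0.5 and 5, other minimums, library-total and circRNA-total scaling, medians, a replicate block and each library left out. The comparison among libraries with a G code was added once values were known. Recovered reads of 2 libraries of a genotype differed with a chi-square per degree of freedom of at least 43.5 in each of 56 pairs, so each library counted as 1 sample. Whether a read was counted in more than 1 row was not given in the sources used here.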

Additional observations from a re-analysis of the deposited data

Results flagged for a closer look

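In 17 rows described above, the highest or lowest library of each genotype was compared with its nearest neighbour by Dixon's ratio (the gap over the range, against its 95% limit for 8 libraries). Of the 34 groups of values, 7 exceeded the limit. Chance would give about 1.7 in independent rows not chosen by their values, but most of these rows were chosen because a few PS19 libraries stood far above the rest, so the ratios describe that choice and are no test of it. mmu_circ_0001801 in PS19-3, at 1765 against 835.6 in PS19-5, exceeded it with a ratio of 0.530. mmu_circ_0015813 and mmu_circ_0001800, nearly identical to it in every library, were at 1765 against 837.5 (0.529 each). mmu_circ_0007298 stood apart in PS19-3 at 2024 against 915.2 (0.556) and in WT-1 at 133.3 against 80.2 (0.615). mmu_circ_0016397 stood apart in WT-8 at 23.3 against 18.1 (0.569). The snoRNA Gm26466 stood apart in PS19-8 at 3078 against 1401 (0.551). mmu_circ_0011843 exceeded the limit in neither genotype, as its 3 high libraries lay closer to each other.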

How the results depend on the processing

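The log2 difference of the 4 circRNAs stayed above 0 in all 92 values recomputed under other scalings, pseudocounts, summaries and sets of libraries, from 0.57 for medians to 2.77 among libraries with a G code. The rows were picked for their excess in PS19, and 3 of them are near copies. The sign thus largely follows from the choice and is no test of a difference. Leaving out 1 library moved it to 1.60 to 2.39 in mmu_circ_0011843, 1.53 to 2.55 in mmu_circ_0001801, 1.49 to 2.48 in mmu_circ_0015813 and 1.498 to 2.49 in mmu_circ_0001800. The number of PS19 libraries above WT ranged from 3 to 6 in mmu_circ_0011843 with 1 library left out (6 without WT-1) and from 2 to 3 in the others. In mmu_circ_0011843 it was also 6 under library-total scaling and among libraries with a G code, and 5 under circRNA-total scaling. In each of the other 3 it rose from 3 to 8 among libraries with a G code, where 2 WT libraries remain. The 7 rows with 3 PS19 libraries at 5 times WT fell to 3 without PS19-3, PS19-4 or PS19-5, and the range over libraries left out was 3 to 10. The exchanged pattern rose from 0 to 1 row at 3 times, and stayed at 0 with any 1 library left out. DESeq2 moved the adjusted count from 0 to 15, of which 4 were the picked circRNAs, and the cause was not tested. As these 4 were picked on this contrast, and 3 of them are near copies, their calls are no test of them. The count stayed at 0 with any 1 library left out in limma. The unadjusted count of 241 became 680 of 17088 rows without the minimum, 136 of 2510 at a mean of at least 20, and 171 to 321 with 1 library left out. Library-total scaling gave 109 higher and 78 lower rows and edgeR 150 and 115, against 112 and 129.

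The replicate numbers were not shown to pair the mice. Deviations of same-numbered libraries correlated by 0.045 to 0.456, with 5 of 8 pairs over 0.1, and 1 of 8 pairs was mutually closest. With a replicate block the unadjusted count was 419 and the adjusted count 0, and the log2 differences of the 4 circRNAs stayed at 2.10, 2.17, 2.12 and 2.13, as a balanced block leaves them unaltered.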
